A study of Mus musculus with 21 samples.

Results

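Major histocompatibility complex (MHC) class I genes and the genes that prepare peptides for class I were followed in tumours of mice treated with lenvatinib, an antibody against PD-1, or both. The set has 10 genes: the heavy chains H2-K1 and H2-D1, the light chain B2m, the peptide transporter genes Tap1 and Tap2, the immunoproteasome genes Psmb8 and Psmb9, the regulator Nlrc5, and the nonclassical chains H2-T23 and H2-M3. They were taken as every probe set of the array annotated to 1 of these names. Of the 10 genes, 9 had a named probe set, 1 each, among the 22206 probe sets tested for 19505 named genes, and Nlrc5 was not matched to one. The 9 are called the class I genes here.

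Tumours were grown by subcutaneous injection of Hepa1-6 cells, a mouse hepatoma line, into C57BL/6J females that were 5 to 6 weeks old. Treatment by random assignment began when a tumour measured 200 mm3, and tumours were taken 13 days after that assignment. The placebo arm of 6 mice received the vehicle of the drug together with polyclonal IgG. The lenvatinib arm of 5 mice received lenvatinib, an inhibitor of VEGF and FGF receptors and related kinases, at 10 mg/kg by gavage each day. The anti-PD1 arm of 5 mice received clone J43, which binds mouse PD-1, at 10 mg/kg into the peritoneum every 3 days for 5 doses. The combination arm of 5 mice received both agents, and the last doses came 2 h (lenvatinib) and 1 day (antibody) before collection. RNA from 30 mg of whole tumour tissue was measured on Clariom S arrays, 1 array per mouse. Each piece thus mixes cells of 1 injected line with the host's own cells, and in such bulk tissue fewer cells of a type and less RNA per cell cannot be told apart.

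Class I molecules carry short peptides from inside the cell to its surface, where CD8 T cells read them. The proteasome cuts proteins into peptides, and interferon-gamma makes cells replace its catalytic subunits by the immunoproteasome subunits that Psmb8 and Psmb9 encode. The transporter formed by Tap1 and Tap2 moves the peptides into the endoplasmic reticulum, where they bind a heavy chain paired with beta-2-microglobulin, the product of B2m. The nonclassical H2-T23 (Qa-1) is the ligand of the NKG2A receptor of NK and CD8 T cells, and H2-M3 presents formylated peptides. The transcription of such genes can be driven by interferon regulatory factors, by NF-kappaB and by Nlrc5, which acts at a promoter block of X and Y boxes.

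The promoters are shown first because H2-K1, H2-D1 and H2-M3 share a block of elements. In the exact letters searched, this block was not found in the windows of the other 5 genes, H2-T23 included. RefSeq windows of 300 bases (GRCm38.p6, 250 before to 50 after the annotated start) were matched by symbol for 8 of the 10 genes. The windows were searched on both strands for GAANNGAAA (an interferon response element), the core of the interferon-stimulated response element (ISRE, whose matches can overlap those of the former), TTCNNNGAA (the STAT site, GAS), a palindromic kappaB site, TGACGC (a core of the X2 box) and CCAAT (the core of the Y box, which in the capitals printed here also appears in its other-strand spelling, ATTGG). Capitals mark those matches. In H2-K1, H2-D1 and H2-M3 the interferon element, the X2 core and a CCAAT box followed each other in that order:
H2-K1 (chr17:34000348-34000462, minus strand, read 5′ to 3′): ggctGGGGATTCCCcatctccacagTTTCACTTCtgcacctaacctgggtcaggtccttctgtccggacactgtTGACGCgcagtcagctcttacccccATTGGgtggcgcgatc
H2-D1 (chr17:35262919-35263033, plus strand): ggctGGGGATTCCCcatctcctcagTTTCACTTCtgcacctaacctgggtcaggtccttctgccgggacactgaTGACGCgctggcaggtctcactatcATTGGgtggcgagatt
H2-M3 (chr17:37270108-37270222, plus strand): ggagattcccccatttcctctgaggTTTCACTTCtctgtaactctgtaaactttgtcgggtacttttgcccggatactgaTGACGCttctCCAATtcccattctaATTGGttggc
The interferon element began 49 bases before the X2 core in H2-K1, 49 in H2-D1 and 55 in H2-M3. Each gene had more than 1 CCAAT match: counted from the annotated start they began at -16 and 8 in H2-K1, at -76 and -53 in H2-D1, and at -129, -36 and -21 in H2-M3, where the first lies upstream of the interferon element. How often such a block occurs among all promoters was not used here, since its order and spacing were read from these genes. The single motifs are common: GAANNGAAA was in 7.52% of all windows, TGACGC in 7.4% and CCAAT in 37.4%. The kappaB site, the first capitals of H2-K1 and H2-D1, was in H2-K1 and H2-D1 and in 0.107% of all windows.

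The other promoters held other matches. B2m and H2-T23 matched the ISRE core, which 3.44% of windows hold and which was searched after the first matches were seen. Both also had a CCAAT box after it. Between these matches the B2m stretch printed below reads tgacga and the H2-T23 window tgatgc, each 1 letter from TGACGC. The stretch printed for Tap1 and Psmb9 holds tgacga too. The H2-M3 stretch printed above opens with ggagattccc, 1 letter from the kappaB site of H2-K1 and H2-D1. A search for exact letters does not count such near matches, and their share over all windows was not determined. Psmb8 and H2-M3 matched GAS, which 8.3% of windows hold. In Tap1 and Psmb9 the search found CCAAT and none of the other letters in this window. These neighbouring genes are read in opposite directions, their annotated starts lie 226 bases apart, and their windows share 275 bases, so 1 stretch lies upstream of both. The 3 stretches printed below carry these features, with the interval between both starts for Tap1 and Psmb9:
B2m (chr2:122147538-122147648, plus strand): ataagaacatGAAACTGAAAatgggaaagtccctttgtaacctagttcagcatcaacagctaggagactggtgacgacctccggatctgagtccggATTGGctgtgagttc
Psmb8 (chr17:34198073-34198131, plus strand): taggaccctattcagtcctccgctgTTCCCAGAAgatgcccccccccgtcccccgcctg
Tap1 and Psmb9 (chr17:34187330-34187556, plus strand): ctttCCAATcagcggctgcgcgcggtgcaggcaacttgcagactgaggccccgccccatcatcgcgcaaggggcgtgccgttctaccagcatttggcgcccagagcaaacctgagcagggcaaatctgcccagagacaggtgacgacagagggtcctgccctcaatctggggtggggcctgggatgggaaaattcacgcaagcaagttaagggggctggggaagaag
A match of letters is a description of the window and does not show that a factor binds there.

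**Figure D1:**
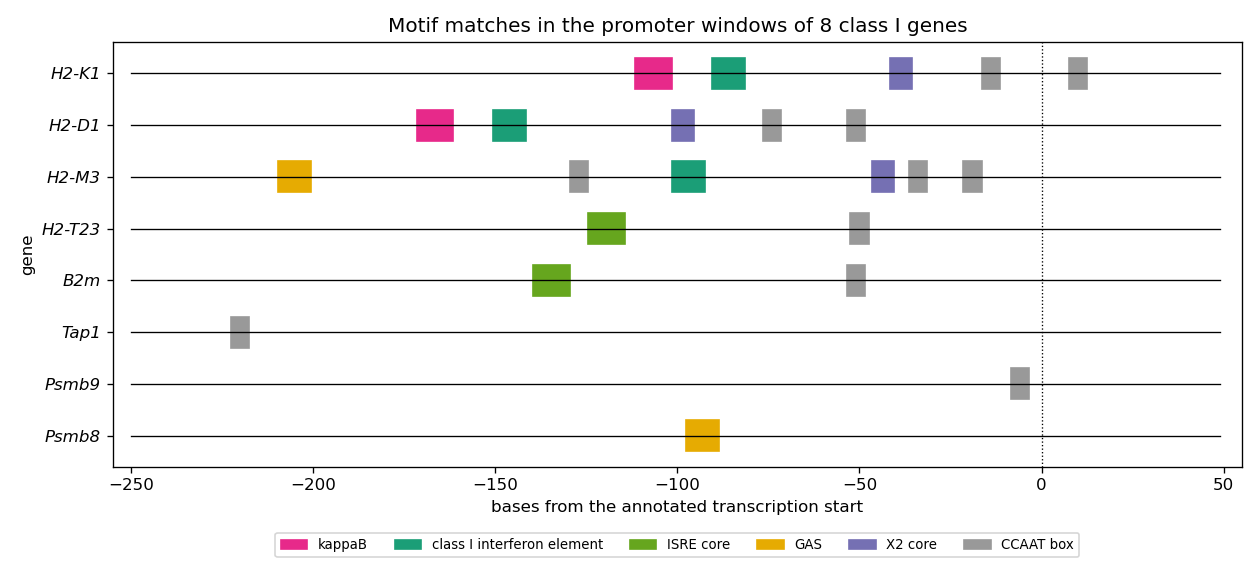
Motif matches in the promoter windows of 8 class I genes, by distance in bases from the annotated transcription start, with a coloured box for each motif. H2-K1, H2-D1 and H2-M3 show the interferon element, the X2 core and a CCAAT box in the same order, and the first base of the interferon element lies at -150 in H2-D1, -101 in H2-M3 and -90 in H2-K1.

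The values are log2 signals, so a difference of 1 is a doubling. Array medians ran from 5.32 to 5.49, and the median of the 5222 negative control rows was 4.08. The number of arrays, which have no read depth, limits the precision of each comparison. On 6 arrays (those of combination mouse 1, anti-PD1 mouse 1, mice 1 and 2 of the lenvatinib arm and mice 4 and 6 of the placebo arm) the hybridization controls, transcripts added to the sample before hybridization, averaged 11.2 to 11.6, against 10.09 to 10.70 on the other 15. The signals of these 6 bright-control arrays had interquartile ranges of 2.41 to 2.82, against 3.00 to 3.25. For the class I genes, differences between arms, spreads and correlations with each other are in part also given without them. List comparisons and scores are for all 21 arrays, as are other correlations unless stated. Alb, made by hepatocytes and hepatoma cells, was at 7.56 to 12.55 in all tumours. Afp, the fetal hepatocyte protein of hepatomas, was at 5.05 or above outside the anti-PD1 arm, and its lowest value there, 3.75, lay below the negative control median. Skeletal muscle genes were high in combination mouse 2, anti-PD1 mouse 2, lenvatinib mouse 4 and placebo mice 1 and 5 (list scores of 3.37 to 4.87). To score a list, the 21-tumour mean of every gene in it was subtracted and the resulting values were averaged.

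Among the classical heavy chains, H2-K1 was high in the 4 combination tumours that were not on a bright-control array. Its log2 signal was 10.34, 11.89, 11.86, 12.04 and 12.04 in combination mice 1 to 5. In the anti-PD1 arm it was 10.06, 11.37, 10.99, 12.01 and 10.90, and in the lenvatinib arm 10.46, 10.28, 11.20, 11.40 and 12.08. Placebo tumours ran from 11.13 to 12.02 with a median of 11.46. The arms overlapped: the lowest combination tumour lay below all placebo tumours, and anti-PD1 mouse 4 and lenvatinib mouse 5 reached the combination's level. The mean was 11.64 ± 0.73 in the combination, 11.07 ± 0.71 with anti-PD1 and 11.08 ± 0.73 with lenvatinib (SD, n = 5 each), and 11.49 ± 0.33 with placebo (SD, n = 6). In the limma fit H2-K1 stood at 0.57 ± 0.38 (standard error) for the combination minus anti-PD1, a 1.48-fold ratio, with Benjamini-Hochberg adjusted p = 0.875. It stood at 0.55 ± 0.38 for the combination minus lenvatinib (limma adjusted p = 0.835). Neither difference exceeded the spread between mice.

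H2-D1 correlated with H2-K1 over the 21 tumours (Pearson r = 0.88, Spearman rho = 0.88) and had a smaller range, 1.66 against 2.02 log2 units. It was 9.02, 10.35, 10.08, 10.14 and 10.61 in the combination, 9.19, 9.50, 10.00, 10.13 and 9.54 with anti-PD1, and 8.95, 8.98, 9.92, 10.01 and 10.36 with lenvatinib. Placebo tumours ran from 9.13 to 10.39 with a median of 9.96. In each arm the lowest tumour was one of the bright-control arrays, and 3 of 5 combination tumours lay above every anti-PD1 tumour. The combination minus anti-PD1 stood at 0.37 ± 0.32 (limma adjusted p = 0.968) and the combination minus lenvatinib at 0.40 ± 0.32 (adjusted p = 0.852).

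B2m, the light chain shared by class I molecules, had the narrowest range of the 9 probe sets, 0.49 log2 units over 21 tumours against a median range of 1.58 for all probe sets tested. Its mean was 12.59 ± 0.09 with placebo (SD, n = 6), and 12.53 ± 0.15 with lenvatinib, 12.55 ± 0.18 with anti-PD1 and 12.62 ± 0.11 in the combination (SD, n = 5 each). The 95% intervals of its 6 differences between arms lay within -0.32 to 0.36, which as folds is 0.80 to 1.28. Its mean signal over the 21 tumours, 12.57, lay at percentile 99.97 of all probe sets, whose median was 5.46. Whether differences are compressed at so high a signal was not tested, so the narrow range does not show that B2m RNA was constant.

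The nonclassical chains had the largest differences between arms among the 9 genes. H2-T23 was 8.86, 9.39, 9.35, 9.24 and 9.62 in the combination and 7.72, 8.10, 9.07, 9.22 and 8.33 with anti-PD1. Lenvatinib tumours were at 8.98, 8.45, 8.98, 9.17 and 9.75, and placebo tumours ran from 8.27 to 9.62 with a median of 8.93. In the combination 4 of 5 tumours lay above all 5 anti-PD1 tumours, and the remaining one, mouse 1, lay above 3 of them. The combination minus anti-PD1 stood at 0.80 ± 0.30, a 1.74-fold ratio with a 95% interval of 0.17 to 1.43 on the log2 scale. Its p of 0.015 in limma did not pass after adjustment over the 22206 probe sets (adjusted p = 0.404).

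H2-M3 had the widest range, 3.08 log2 units or 8.47-fold over the 21 tumours. It was 6.10, 7.49, 7.30, 7.67 and 7.98 in the combination and 4.90, 5.94, 6.91, 7.26 and 6.62 with anti-PD1. With lenvatinib it was 5.62, 6.61, 6.96, 7.10 and 7.48, and placebo tumours ran from 6.28 to 7.59 with a median of 6.92. Again 4 of 5 combination tumours lay above every anti-PD1 tumour, with mouse 1 as the exception. The combination minus anti-PD1 stood at 0.98 ± 0.42, a 1.98-fold ratio with a 95% interval of 0.10 to 1.86 (limma adjusted p = 0.545). Anti-PD1 minus placebo stood at -0.60 ± 0.40 (adjusted p = 1) and the combination minus placebo at 0.39 ± 0.40 (adjusted p = 1).

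The transporter gene Tap1 was scattered in the arms without lenvatinib and close together in those with it. Placebo tumours ran from 7.32 to 8.95 with a median of 8.20, and anti-PD1 tumours at 6.92, 6.99, 8.68, 8.70 and 8.14. Lenvatinib tumours stood at 8.49, 8.34, 8.77, 8.65 and 9.11, and combination tumours at 8.52, 8.10, 8.58, 8.70 and 8.16. The 5 lowest values were those of placebo mice 1, 4 and 6 (7.46, 7.68 and 7.32) and anti-PD1 mice 1 and 2. Lenvatinib minus anti-PD1 stood at 0.78 ± 0.37, a 1.72-fold ratio with 5 of 5 lenvatinib tumours above the anti-PD1 mean (limma adjusted p = 0.955). Lenvatinib minus placebo stood at 0.50 ± 0.36 (adjusted p = 0.753). Tap2, which encodes the partner of Tap1 in the transporter, had arm means of 6.67 ± 0.34 (SD, n = 6) with placebo, 6.64 ± 0.35 with lenvatinib, 6.32 ± 0.55 with anti-PD1 and 6.64 ± 0.13 in the combination (SD, n = 5 each). Its lowest value was 5.34 in anti-PD1 mouse 1, and the other 4 anti-PD1 tumours were at 6.55 to 6.58.

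The immunoproteasome genes had the pattern of Tap1. Psmb8 was 10.00, 10.17, 10.25, 10.28 and 10.20 with lenvatinib and 9.85, 10.01, 10.16, 10.34 and 10.21 in the combination. With anti-PD1 it was 9.02, 9.04, 10.23, 9.90 and 9.75, and placebo tumours ran from 9.22 to 10.52 with a median of 9.77. All 5 lenvatinib and all 5 combination tumours lay above the placebo mean and above the anti-PD1 mean, and the highest value was that of placebo mouse 2. Lenvatinib minus anti-PD1 stood at 0.59 ± 0.26 (limma adjusted p = 0.955), and the combination minus anti-PD1 at 0.53 ± 0.26 (adjusted p = 0.665). Psmb9 was 10.30, 10.64, 10.64, 10.73 and 10.64 with lenvatinib and 10.21, 10.29, 10.54, 10.65 and 10.43 in the combination. With anti-PD1 it was 9.77, 9.16, 10.78, 10.38 and 10.08, and in placebo mice it ran from 9.53 to 10.97 with a median of 10.31. The same placebo mice as for Tap1 were low, and the arms overlapped. Lenvatinib minus anti-PD1 stood at 0.56 ± 0.29 for Psmb9 (adjusted p = 0.955).

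**Figure D2:**
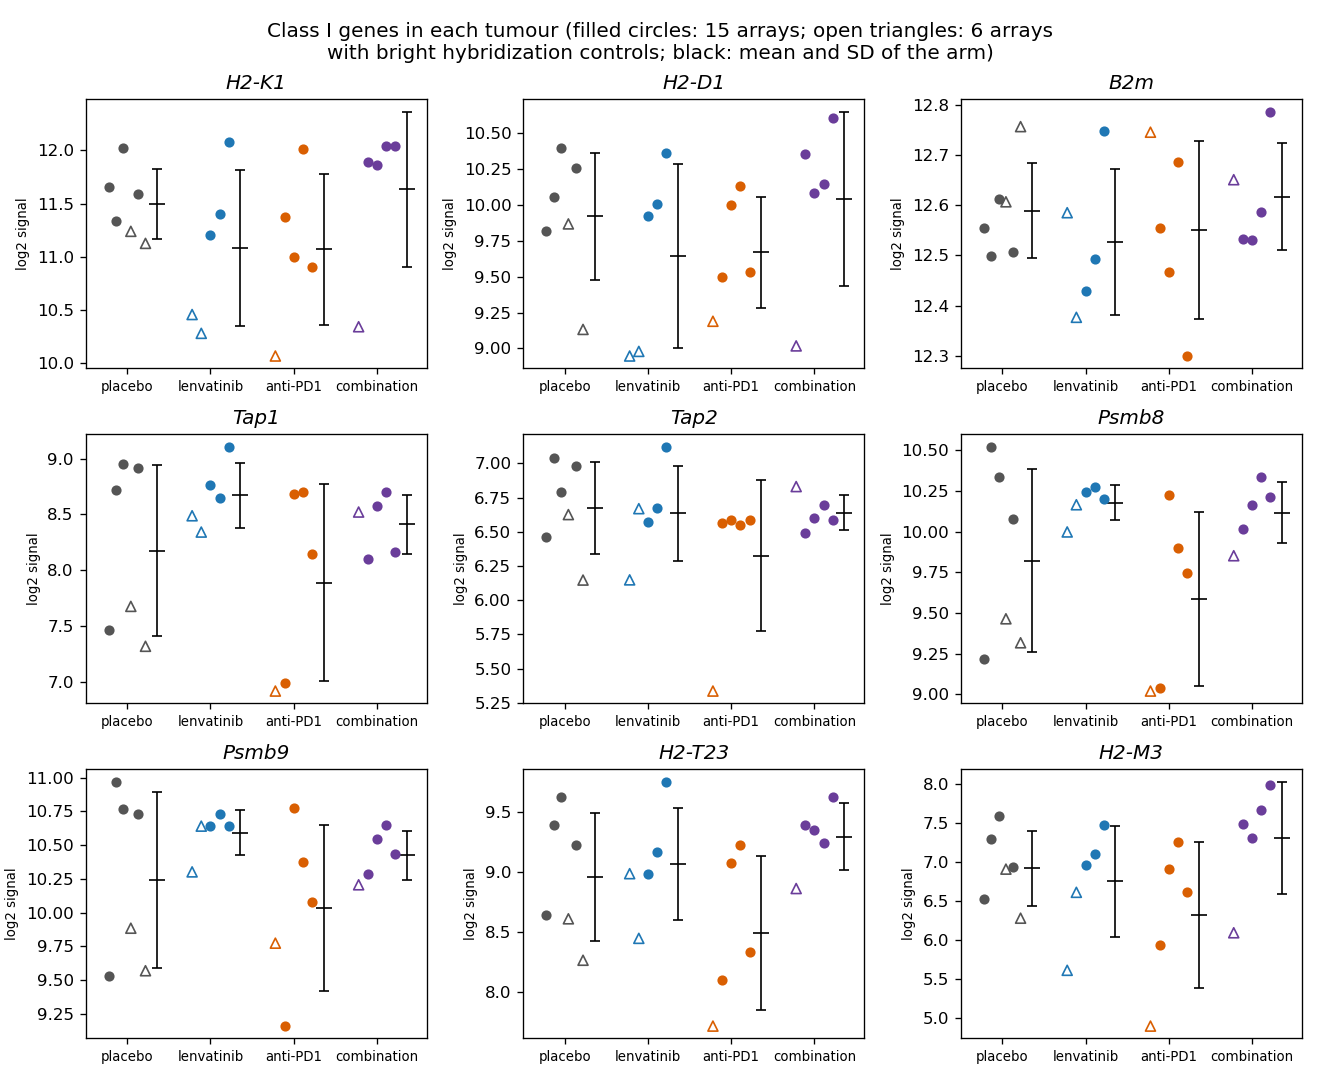
Log2 signal of the 9 class I genes in each of 21 tumours by arm, with the mean and SD of the arm in black and the 6 bright-control arrays as open triangles. Tap1, Psmb8 and Psmb9 lie close together in the lenvatinib and combination arms (Psmb8 SD 0.11 and 0.19) and apart in the placebo and anti-PD1 arms (0.56 and 0.54), while H2-K1, H2-D1 and H2-M3 are lowest on bright-control arrays in the lenvatinib, anti-PD1 and combination arms.

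Set against placebo, neither agent alone nor both together changed a class I gene past the threshold. For lenvatinib minus placebo 0 of 9 passed in limma at an adjusted p under 0.05, as did 0% of all probe sets, and 0 of 9 had an unadjusted p under 0.05, against 6.97% of all. Of the 9 genes, 4 lay above 0 and 5 below, with a median of -0.04: Tap1, Psmb8, Psmb9 and H2-T23 were above and both classical heavy chains below (H2-K1 at -0.41 ± 0.36). For anti-PD1 minus placebo 0 of 9 passed (0% of all) and 0 had an unadjusted p under 0.05 (4.07% of all). All 9 lay below 0, from -0.60 to -0.04, with a median of -0.29. Without anti-PD1 mouse 1 the median was -0.13 and H2-M3 stood at -0.24. For the combination minus placebo 0 of 9 passed (0% of all) and 0 had an unadjusted p under 0.05 (2.31% of all), with 8 above 0 and a median of 0.18, which ran from 0.067 to 0.36 as each mouse was left out, the highest without combination mouse 1. The median over all probe sets tested was within 0.01 of 0 in these comparisons, which share the placebo tumours. Marker lists of other cells moved too, with no gene passing: for anti-PD1 minus placebo, 9 of 9 T cell and 13 of 13 macrophage markers lay below 0 (medians -0.93 and -1.17). For lenvatinib minus placebo, 13 of 14 hepatocyte lineage genes lay above 0 (median 0.94) and 9 of 9 adipocyte genes below (median -1.73). For the combination minus placebo, 9 of 9 B cell and 9 of 9 T cell markers lay above 0 (medians 1.19 and 0.61). The B cell score was 1.51 and 3.59 in combination mice 3 and 4, and -0.30, -0.16 and -0.05 in combination mice 1, 2 and 5. The part of these other cells in the class I values was not tested.

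Between treated arms, 0 of 9 passed for the combination minus lenvatinib (0% of all), with 0 at an unadjusted p under 0.05 (6.40% of all). There 6 genes lay above 0 and 3 (Tap1, Psmb8 and Psmb9) below, with a median of 0.09. For the combination minus anti-PD1, 0 of 9 passed (0% of all), all 9 lay above 0 and their median was 0.52. H2-T23 and H2-M3 had an unadjusted p under 0.05, as did 4.85% of all probe sets on the higher side and 7.64% in either direction. For lenvatinib minus anti-PD1, 0 of 9 passed (0% of all), 7 lay above 0 and the median of the 9 was 0.43, which fell to 0.07 without anti-PD1 mouse 1. Tap1 and Psmb8 had an unadjusted p under 0.05, against 1.55% of all on the higher side and 4.59% in all. These comparisons share arms, and the anti-PD1 arm holds the lowest tumour of 8 of the 9 genes (mouse 1 for H2-K1, Tap1, Tap2, Psmb8, H2-T23 and H2-M3, mouse 2 for Psmb9 and mouse 5 for B2m). Without anti-PD1 mouse 1, the combination minus anti-PD1 stood at 0.32 for H2-K1, 0.28 for Tap1, 0.07 for Tap2 and 0.63 for H2-M3, and lenvatinib minus anti-PD1 stood at 0.07 for H2-M3, 0.06 for Tap2 and -0.24 for H2-K1. Without combination mouse 1, the combination minus anti-PD1 stood at 0.89 for H2-K1 and 1.29 for H2-M3 (limma adjusted p = 0.299 and 0.147).

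Whether both agents together differ from the sum of their separate effects was tested by the interaction of the 4 arms. No class I gene passed (0 of 9, 0% of all), and 0 had an unadjusted p under 0.05, against 9.02% of all. All 9 lay above 0 with a median of 0.35, from 0.03 for Tap1 to 1.15 ± 0.58 for H2-M3 (limma adjusted p = 0.589), and H2-K1 stood at 0.98 ± 0.52 (adjusted p = 0.616). Over any difference among the 4 arms 0 of 9 passed (0% of all), with 0 at an unadjusted p under 0.05 against 5.69% of all. Arms accounted for 7.58% of the variance of B2m to 28.8% of that of H2-T23, and for a median of 12.6% over all probe sets. In simulated data of this size, 200 probe sets drawn at random were changed at once. For the combination minus anti-PD1 the fit recovered 40.1% of 2-fold and 88.2% of 4-fold changes, with up to 146 false calls in a draw. A 2-fold change was thus more often missed than found there. The SD within arms was 0.72 for H2-M3, 0.63 for H2-K1 and 0.13 for B2m, against a median of 0.40 over all probe sets. These rates are therefore not those of a single class I gene. The count over all probe sets for that comparison rested on single tumours: 338 passed without combination mouse 1, 87 without anti-PD1 mouse 4 and 233 without the 6 bright-control arrays, with 0 class I genes each time. For the interaction 320 passed without combination mouse 1, 81 without lenvatinib mouse 5 and 7 without anti-PD1 mouse 4, again with 0 class I genes.

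**Figure D3:**
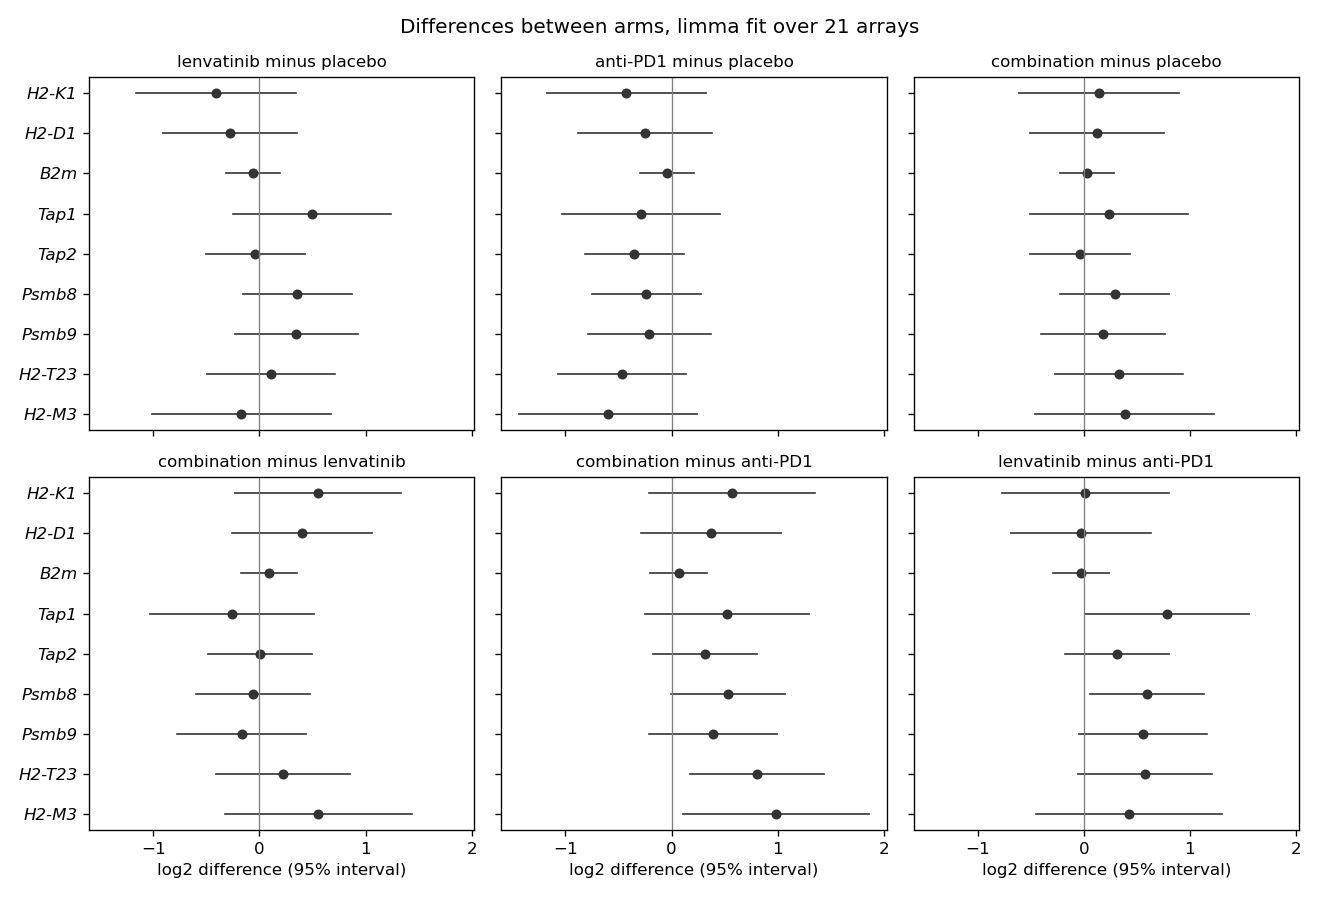
Differences between arms for the 9 class I genes, as log2 differences with 95% intervals from the limma fit over 21 arrays. In the combination minus anti-PD1 all 9 points lie to the right of 0 and the intervals of H2-T23 and H2-M3 exclude 0 before adjustment, and in anti-PD1 minus placebo all 9 points lie to the left.

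The heavy chains were lower on the bright-control arrays than on the others of the same arm. H2-K1 stood at -1.05 ± 0.18 for those 6 arrays minus the other 15, with arms in the fit (limma adjusted p = 0.000262), H2-M3 stood at -1.11 ± 0.22 (adjusted p = 0.000988) and H2-D1 at -0.90 ± 0.15 (adjusted p = 0.000201). H2-T23 stood at -0.71, Tap1 at -0.66, Psmb8 at -0.46 and Tap2 at -0.44, and these 4 also passed. Psmb9 stood at -0.42 (adjusted p = 0.114) and B2m at 0.08 (adjusted p = 0.519). Thus 7 of 9 class I genes passed on the lower side, against 17.4% of all probe sets, and 21.0% of all passed on the higher side (38.4% in either direction). Among the 4442 probe sets in the top 20% of mean signal, 67.0% lay below 0 with a median of -0.29. Of these 4442, 1631 passed on the lower side and 549 on the higher. All class I genes but Tap2 and H2-M3 are in that top 20%.

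Without these arrays no class I gene passed, 8 differences of class I genes changed sign, and the count over all probe sets for the combination minus anti-PD1 went from 0 to 233. Among the 8, Tap1 went from 0.24 to -0.13 for the combination minus placebo and H2-D1 from -0.03 to 0.31 for lenvatinib minus anti-PD1. With the 15 other arrays the combination minus anti-PD1 stood at 0.64 for H2-K1, 0.51 for H2-D1, 0.72 for H2-T23 and 0.93 for H2-M3 (limma adjusted p = 0.112 to 0.22), at 0.45 for Psmb8, and at 0.25 for Tap1 and 0.02 for Tap2. With the 6 arrays as a block the smallest adjusted p of the set in that comparison was 0.128, for H2-T23 at 0.80. In either fit 0 of 9 class I genes passed, also in the other comparisons.

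The spread among tumours of an arm differed between genes. The SD within arms of Psmb8, pooled over the lenvatinib and combination arms, was 0.153, and over the placebo and anti-PD1 arms 0.550. For Psmb9 these were 0.173 and 0.636, and for Tap1 0.278 and 0.819. The ratio of the SDs was 0.279 for Psmb8, 0.272 for Psmb9 and 0.340 for Tap1, against a median of 0.919 over all probe sets, and 0.558%, 0.495% and 1.79% of all probe sets had a ratio as low. Without the bright-control arrays the ratios were 0.197, 0.183 and 0.364, reached by 0.955%, 0.721% and 8.65% of probe sets. The heavy chains differed among themselves: over 21 arrays the ratio was 1.37 for H2-K1, 1.49 for H2-D1, 0.997 for H2-M3 and 0.662 for H2-T23. Over the 15 arrays it was 0.738 for H2-K1, 0.815 for H2-D1, 0.550 for H2-M3 and 0.580 for H2-T23, against a median of 0.804 over all probe sets. This contrast of arms was noticed in the values and is given as a description, without a test.

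**Figure D4:**
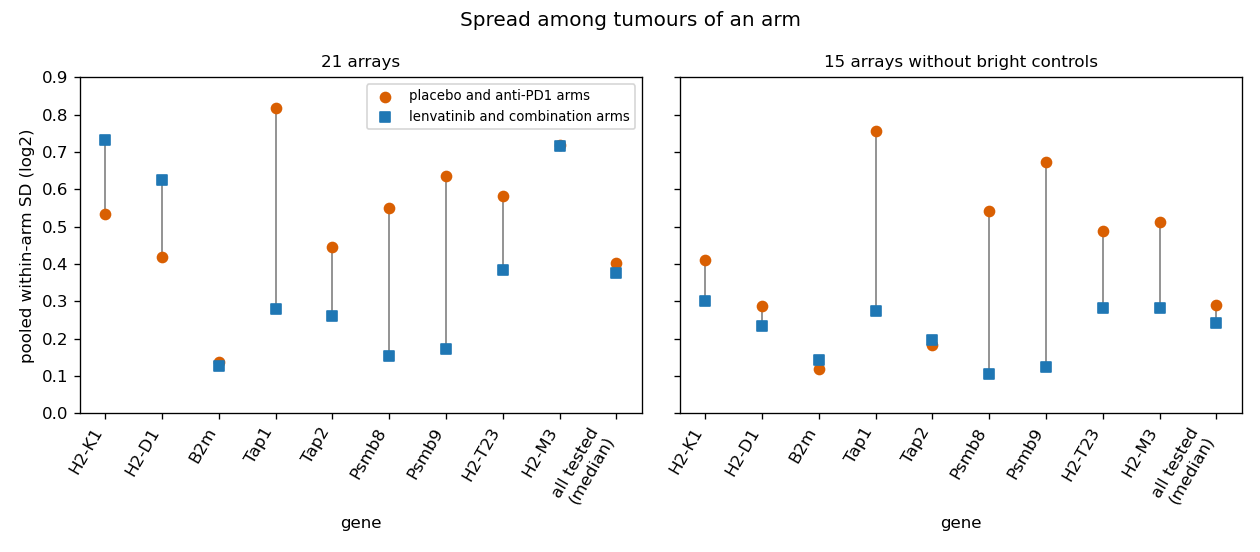
SD within arms of each class I gene, pooled over the placebo and anti-PD1 arms (circles) and over the lenvatinib and combination arms (squares), with the median of all probe sets tested at the right of each panel. Tap1, Psmb8 and Psmb9 spread less in the arms given lenvatinib in both panels, while H2-K1 and H2-D1 spread more over 21 arrays (left) and slightly less over 15 (right).

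Tumours low in Tap1, Psmb8 and Psmb9 also had low scores of hepatoma genes and of genes of dividing cells. Placebo mice 1, 4 and 6 had hepatocyte lineage scores (14 of 15 genes measured) of -1.44, -0.99 and -1.26, and mitosis scores (13 of 14) of -1.81, -1.65 and -1.51. Anti-PD1 mice 1 and 2 had hepatocyte lineage scores of -0.36 and -1.55 and mitosis scores of -0.74 and -1.84. Adipocyte scores (9 of 10 genes) in these 5 tumours were 1.94 to 2.82, while anti-PD1 mouse 4 had one of 1.82 with Tap1 at 8.70. Placebo mice 4 and 6 and anti-PD1 mouse 1 were on bright-control arrays. Combination mouse 5 had scores as low (-1.11 for the hepatocyte lineage and -1.08 for mitosis), with Tap1 at 8.16. The hepatocyte lineage score ran from -1.44 to 0.94 in placebo, 0.36 to 0.90 with lenvatinib, -1.55 to 1.00 with anti-PD1 and -1.11 to 0.80 in the combination. Over the 21 tumours Tap1 correlated with that score at Pearson r = 0.70, with the mitosis score at 0.77 and with the adipocyte score at -0.68. H2-K1 correlated with them at -0.31, -0.13 and 0.15. The part of tumour cell share in the values of Tap1, Psmb8 and Psmb9 was not tested.

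Over the 21 tumours the genes fell into a pair of trios and B2m apart. H2-K1, H2-D1 and H2-M3 correlated with each other at r = 0.82 to 0.88 (Pearson, n = 21 tumours of 4 arms). Tap1, Psmb8 and Psmb9 correlated at 0.91 to 0.96, and pairs across the trios at 0.23 to 0.71 with a median of 0.47. On the 15 arrays without bright controls the values were 0.66 to 0.89, 0.87 to 0.97 and 0.11 to 0.78. There H2-M3 with Psmb8 (0.78) lay above H2-K1 with H2-D1 (0.73), so the heavy chain trio did not stand apart. Over 21 tumours 6.16% of all probe sets correlated above 0.7 with H2-K1, 3.77% with H2-M3 and 3.23% with Tap1. H2-T23 stood between the trios over the 21 tumours, at 0.83 with H2-M3 and 0.82 with Tap1, and on the 15 arrays it was closest to H2-D1 (0.94). Over the 21 tumours Tap1 correlated with Psmb9 at 0.91, with Psmb8 at 0.91 and with Tap2 at 0.69, and Psmb8 with Psmb9 at 0.96. Whether the promoter elements bear on these correlations was not tested. B2m correlated with the other 8 at -0.27 to 0.22 over 21 tumours and at 0.03 to 0.84 over 15, with the highest for H2-K1. These correlations describe tumours that share arms and array conditions, and the heavy chains were low together on the bright-control arrays.

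**Figure D5:**
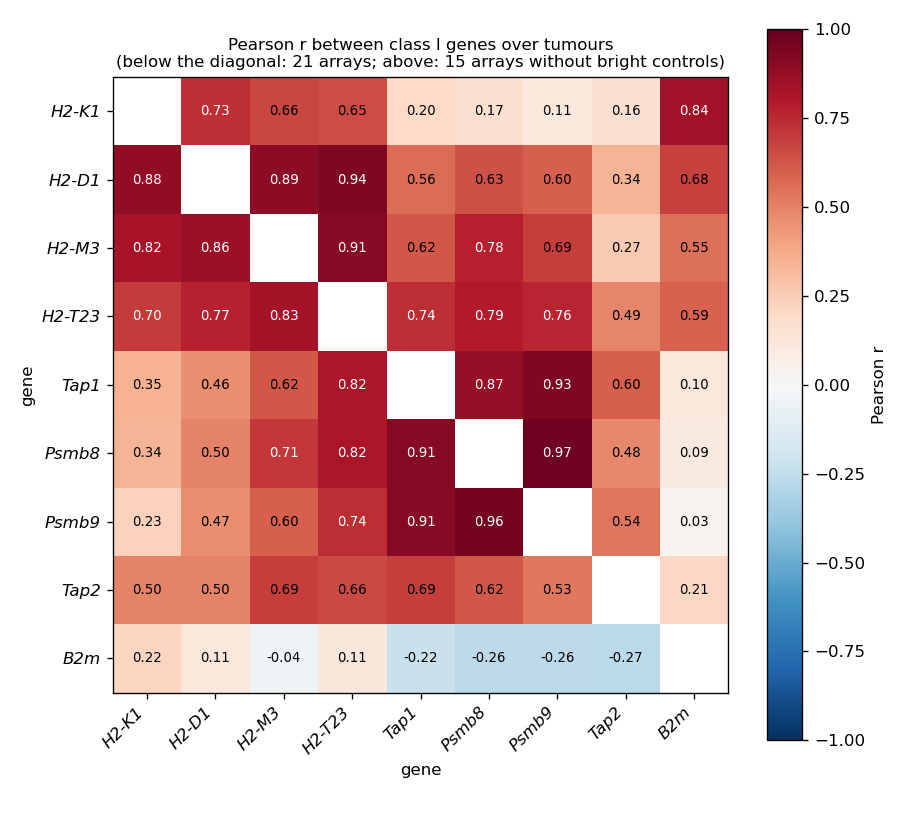
Pearson correlations between the 9 class I genes over tumours, with 21 arrays below the diagonal and the 15 arrays without bright controls above it, on a colour scale from -1 to 1. The heavy chains H2-K1, H2-D1 and H2-M3 form a block of 0.82 to 0.88 below the diagonal, Tap1, Psmb8 and Psmb9 a block of 0.91 to 0.96, and B2m is near 0 with all genes below the diagonal and reaches 0.84 with H2-K1 above it.

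The genes outside the set whose signal was most like the mean of the 9 were Psme1 (r = 0.95), which encodes a subunit of the PA28 proteasome activator, Samhd1 (0.92), a nucleotide hydrolase, and the predicted gene Gm5431 (0.92). H2-DMb1, which helps to load class II molecules, followed at 0.91, with Edem2, Arpc2, Casp1, Sting1, Ctsa and the pseudogene H2-T-ps at 0.89 to 0.91 (n = 21 tumours). On the 15 arrays without bright controls these genes ran from 0.81 (Arpc2) to 0.95 (Psme1). By single gene the nearest were Gbp2, an interferon-induced GTPase, for Tap1 (0.97), Casp1, the protease that matures interleukin-1 beta, for H2-M3 (0.97), the aminopeptidase Anpep for H2-K1 (0.95) and Mfge8, which tags dying cells for uptake, for H2-D1 (0.95). H2-T-ps was nearest to H2-T23 (0.92), and probes of such near copies can share targets. Irf1, an interferon-induced activator of class I genes, correlated with Psmb9 at 0.84, with Tap1 at 0.84 and with H2-K1 at -0.02. With the other heavy chains it correlated at 0.16 (H2-D1), 0.25 (H2-M3) and 0.62 (H2-T23). On the 15 arrays the values were 0.93 for Psmb9, 0.96 for Tap1, 0.14 for H2-K1, 0.59 for H2-D1, 0.60 for H2-M3 and 0.76 for H2-T23. Cd8a, a chain of the T cell co-receptor for class I, correlated with H2-K1 at 0.78, H2-D1 at 0.81 and H2-M3 at 0.81, and with Tap1 at 0.43. On the 15 arrays these were 0.68, 0.72, 0.78 and 0.36.

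The rest of the class I pathway was read from lists in which 0 genes passed in any of the 7 comparisons (0% of all probe sets). At an unadjusted p under 0.05 in the combination minus anti-PD1, on the higher side, stood 1 of 10 genes of loading and trimming, 3 of 21 regulators, 3 of 15 other class I chains, 0 of 13 constitutive proteasome genes and 5 of 8 receptors, against 4.85% of all. For the combination minus anti-PD1, 9 of 10 genes of peptide loading and trimming lay above 0 with a median of 0.31. They included Psme2, the other PA28 subunit, at 0.33 ± 0.14, Psme1 at 0.34 ± 0.17 and Psmb10, the third immunoproteasome subunit, at 0.37 ± 0.23 (limma adjusted p = 0.567 to 0.843). Of the class I regulators 20 of 21 measured lay above 0 with a median of 0.28, among them the interferon-gamma receptor chains Ifngr2 at 0.62 ± 0.19 and Ifngr1 at 0.52 ± 0.18, and Irf2 at 0.63 ± 0.19 (adjusted p = 0.218 to 0.321). The constitutive 20S proteasome was split, with 7 of 13 above 0 and a median of 0.05. Other class I and class I-like chains were split too, 9 of 15 above 0 with a median of 0.06, including the T-region gene H2-T22 at 0.45 ± 0.20 and H2-Q2 at 0.55 ± 0.23.

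Receptors that bind class I molecules were read in the same comparison. Of 8 receptor genes 7 lay above 0 with a median of 1.44. They included Cd8b1, the beta chain of CD8, at 2.48 ± 0.54 (limma adjusted p = 0.124), Cd8a, its alpha chain, at 1.72 ± 0.53 (adjusted p = 0.24), and the myeloid inhibitory receptor Pirb at 1.45 ± 0.40 (adjusted p = 0.182). Klrd1, the partner of NKG2A in the receptor for H2-T23, stood at 1.86 ± 0.61 (adjusted p = 0.277). MHC class II genes had 9 of 9 above 0 with a median of 1.05, T cell markers 9 of 9 with 1.77 and macrophage markers 13 of 13 with 1.40. T cell scores were -1.79 to -0.16 with anti-PD1 and -0.35 to 1.84 in the combination, and macrophage scores -1.35 to 0.42 and -0.64 to 1.33. The part of these host cells in the class I signal was not tested.

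Interferon-gamma response genes lay mostly above 0 where lenvatinib or the combination was set against placebo or anti-PD1. For lenvatinib minus placebo 18 of 19 interferon-gamma response genes lay above 0 with a median of 0.70, among them the GTPases Irgm1 at 0.99 ± 0.37 and Gbp3 at 0.70 ± 0.33 (limma adjusted p = 0.693 for both). For lenvatinib minus anti-PD1 17 of 19 did with a median of 0.88, including the PD-L1 gene Cd274 at 1.20 ± 0.41 and the chemokine gene Cxcl9 at 1.22 ± 0.50 (adjusted p = 0.955), and 9 of the 19 had an unadjusted p under 0.05 on the higher side, against 1.55% of all. Irf1 stood at 0.84 ± 0.39 there (adjusted p = 0.955). For the combination, 17 of 19 lay above 0 minus placebo (median 0.29) and 17 of 19 minus anti-PD1 (median 0.47), and 16 of 19 lay below 0 minus lenvatinib (median -0.42). At an unadjusted limma p under 0.05, on the higher side, stood 2 of 19 for lenvatinib minus placebo, against 2.92% of all. The combination had 0 minus placebo (1.01% of all) and 2 minus anti-PD1 (4.85%) there. On the lower side 1 stood for the combination minus anti-PD1 (2.79%) and 1 for the combination minus lenvatinib (2.53%). For lenvatinib minus placebo and minus anti-PD1 the type I interferon list had 13 of 21 and 14 of 21 above 0 with medians of 0.16 and 0.07. Interferon-gamma scores spread from -0.98 to 0.65 in placebo and -1.20 to 0.53 with anti-PD1, against 0.08 to 0.94 with lenvatinib and -0.14 to 0.54 in the combination. Ifng itself had arm means of 4.07 to 4.71, near the negative control median of 4.08. Tap1 correlated with the interferon-gamma score at r = 0.96, Psmb8 and Psmb9 at 0.89, H2-T23 at 0.81 and H2-K1 at 0.36 (n = 21 tumours).

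Relative to the constitutive catalytic subunits Psmb6 and Psmb7, the immunoproteasome genes were also higher on average in the arms given lenvatinib. Psmb5 had no named probe set, so this comparison does not pair each subunit with the one it replaces. The mean of Psmb8 and Psmb9 minus that of Psmb6 and Psmb7, centred on its mean over the tumours, was -0.15 ± 0.53 (SD, n = 6) with placebo and -0.23 ± 0.43 (SD, n = 5) with anti-PD1. It was 0.25 ± 0.24 with lenvatinib and 0.16 ± 0.32 in the combination (SD, n = 5 each). By tumour it ran from -0.81 to 0.51 with placebo and from -0.07 to 0.50 with lenvatinib, so the arms overlapped. Its SDs differed less between arms than those of Psmb8 alone, which were 0.11 with lenvatinib, 0.19 in the combination, 0.56 with placebo and 0.54 with anti-PD1. Psmb6 and Psmb7 correlated with Psmb8 at 0.50 and 0.19.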

How the data were processed

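Gene expression of 21 tumours was measured on Clariom S mouse arrays, 1 per mouse. What the authors deposited is a table of log2 signals, for which the submitters' processing notes name RMA and oligo without a version. The build is not given in the sources used here. RMA corrects the background, normalizes the arrays by quantiles and summarizes probe sets, so a shift shared by most genes is removed. Mice were placed in arms by their treatment label.

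Of 29129 rows 6923 control rows were left out. Names came from the platform's annotation. With limma 3.58.1 (statmod 1.5.0, R 4.3.3), 4 group means were fitted over 21 arrays by lmFit and eBayes, with 6 pairs of arms, their interaction and a moderated F test. The threshold was 0.05 after Benjamini-Hochberg adjustment of two-sided p-values over 22206 probe sets, and intervals are at 95%. The fit was tested on simulated data. The members, the pathway and marker lists and the rule for naming genes (the members, the 4 smallest p of a pathway list, stated regulators and receptors, and the genes most like the members) were chosen with earlier results of these data known. Alternatives were cyclic loess, dropping the dimmest 40 percent of probe sets, eBayes with its trend and robust options, array weights, a fit of only the 2 arms in question, a block for the mouse number, the hybridization control signal as a covariate or as a block of 6 arrays, leaving out those 6 arrays, the tumours rich in muscle (score over 2) or the B cell rich combination mice 3 and 4, an adjusted p under 0.1, and leaving out each mouse in turn. Promoter sequences are from RefSeq. Same-numbered mice of different arms had residuals correlated at -0.63 to 0.56 (median 0.10), and differently numbered mice at -0.58 to 0.74 (median -0.04). The numbers were taken as names in the main fit, and the block for the mouse number is the alternative. Mouse 1 of the lenvatinib, anti-PD1 and combination arms was on a bright-control array, while placebo mouse 1 was not. The number is therefore not free of array conditions.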

Additional observations from a re-analysis of the deposited data

Results flagged for a closer look

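In 3 of 40 groups tested (9 genes and their mean score in 4 arms), the lowest tumour lay further from the others than Dixon's limit allows, where chance gives about 1 in 20. H2-K1 was at 10.34 in combination mouse 1, with the next combination tumour at 11.86. Tap2 was at 5.34 in anti-PD1 mouse 1, with the next at 6.55. Psmb9 was at 10.30 in lenvatinib mouse 1, with the next at 10.64. Each of these tumours was on an array with bright hybridization controls.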

How the results depend on the processing

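Across 12 other settings and 21 fits that each left out a mouse, 0 of 9 class I genes passed in any comparison. The count over all probe sets, 0 in each comparison as reported, rose with array weights to 707 for the combination minus lenvatinib, 504 for the combination minus anti-PD1, 1691 for the interaction and 142 for any difference among arms. It was 31 with the hybridization control signal as a covariate and 233 without the 6 bright-control arrays for the combination minus anti-PD1. Leaving out 1 mouse gave 0 to 338 for the combination minus anti-PD1, 0 to 320 for the interaction and 0 to 1 for the combination minus lenvatinib, with each maximum without combination mouse 1. The cause was not tested.

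Of the log2 differences of the 9 genes, 84 changed sign under a setting, 48 of them on leaving out a mouse, all from values that had not passed. With cyclic loess Tap2 was 0.0026 and B2m 0.045 (lenvatinib and anti-PD1 minus placebo), Tap2 -0.042 (combination minus lenvatinib), H2-K1 -0.082 (lenvatinib minus anti-PD1), and the interactions of Tap1 and Psmb9 -0.049 and -0.016. With array weights H2-M3 was 0.034 (lenvatinib minus placebo), Tap1 -0.0045 (combination minus placebo), Tap2 -0.11 (combination minus lenvatinib), H2-D1 0.16 and B2m 0.035 (lenvatinib minus anti-PD1), and the interactions of Tap1, Psmb8 and Psmb9 were -0.28, -0.0059 and -0.11. With the hybridization control signal as a covariate Tap2 was -0.026 (combination minus lenvatinib) and H2-D1 0.092 (lenvatinib minus anti-PD1), and with bright controls as a block -0.085 and 0.15, with Tap1 at -0.015 (interaction). Without the 6 arrays B2m was 0.014 and H2-M3 0.093 (lenvatinib minus placebo), Tap1 -0.13 and Psmb9 -0.022 (combination minus placebo), Tap2 -0.20 (combination minus lenvatinib), H2-D1 0.31 and B2m 0.055 (lenvatinib minus anti-PD1), and Tap1 -0.073 (interaction). Without the muscle-rich tumours Tap2 was 0.027 (combination minus placebo) and the interactions of Tap1 and Psmb9 were -0.13 and -0.053. Without combination mice 3 and 4 H2-K1 was -0.068 (combination minus placebo), Tap2 -0.0013 (combination minus lenvatinib), and those interactions -0.12 and -0.072.

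Leaving out 1 mouse gave, for lenvatinib minus placebo, -0.16 to 0.084 for Tap2, -0.063 to 0.26 for H2-T23 and -0.35 to 0.12 for H2-M3. For anti-PD1 minus placebo it gave -0.087 to 0.024 for B2m and -0.39 to 0.0095 for Psmb9. For the combination minus placebo it gave -0.036 to 0.38 for H2-D1, -0.014 to 0.061 for B2m and -0.14 to 0.038 for Tap2. For the combination minus lenvatinib it gave -0.12 to 0.13 for Tap2 and -0.12 to 0.0042 for Psmb8. For lenvatinib minus anti-PD1 it gave -0.24 to 0.25 for H2-K1, -0.21 to 0.15 for H2-D1 and -0.087 to 0.024 for B2m, and for the interaction -0.21 to 0.23 for Tap1 and -0.18 to 0.23 for Psmb9.

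With the mouse number as a replicate block 0 of 9 class I genes passed in each comparison, and H2-T23 was -0.031 (lenvatinib minus placebo) and H2-D1 -0.036 (combination minus placebo). A mean over several probe sets of a gene was not run, since each class I gene had 1. Ifng lay near the negative controls, which limits what its signal can show.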
